A study of Arabidopsis thaliana with 28 samples.

Results

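The genes described here encode proteins of the large (60S) subunit of the cytosolic ribosome of Arabidopsis thaliana. They are 40 named loci of 32 protein families, taken from a table of 30901 genes, and all 40 passed the filter on low counts that left 16207 genes. RNA came from nuclear and cytoplasmic fractions of whole rosettes of Col-0, the wild type, and the mutant mos11, harvested at an age of 14 days. The labels give no allele of mos11, no treatment and no pooling of plants, and they say that plants grew in long days on soil or on a culture medium. Each fraction was sequenced in 4 libraries of Col-0 and 5 of mos11, 18 in all. MOS11 encodes a small protein of the machinery that carries mRNA out of the nucleus, and the series asks which export defects the mutant has.

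The large subunit joins amino acids into protein and guides the new chain out through its exit tunnel. In plants nearly every ribosomal protein is encoded by several genes, so a family can be supplied by more than one locus at once. Messenger RNAs of ribosomal proteins are made in the nucleus, translated in the cytoplasm, and the proteins return to the nucleolus to be built into new subunits. Their production tracks growth. The members cover the catalytic core (L3, L4, L8 and L10, with L4 also lining the tunnel), the proteins that form a particle with 5S ribosomal RNA (L5 and L11), and the moving stalks (L10a, L12 and P1). They also cover the rim of the tunnel exit (L17, L23a, L26 and L35) and the body and surface (L6, L7, L9, L13, L13a, L14, L15, L18, L18a, L19, L21, L22, L23, L24, L27, L27a, L28, L30 and L34).

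The promoters of 3 genes that the results return to are shown here, the stalk gene P1 and both L4 genes, the first because its values differed most between fractions, and the pair because the ratio of its genes is described below. Each is the stretch from 250 bases before to 50 bases after the annotated gene start, read 5′ to 3′ on the gene's strand from the RefSeq genome TAIR10.1. Capitals mark the telo box (AAACCCTA) and the site II element (TGGGCC or TGGGCT), searched on both strands, so that GGCCCA and AGCCCA are site II on the other strand. Both elements are known from promoters of plant ribosomal protein genes.
P1 (AT1G01100), minus strand, chr1:51161-51460: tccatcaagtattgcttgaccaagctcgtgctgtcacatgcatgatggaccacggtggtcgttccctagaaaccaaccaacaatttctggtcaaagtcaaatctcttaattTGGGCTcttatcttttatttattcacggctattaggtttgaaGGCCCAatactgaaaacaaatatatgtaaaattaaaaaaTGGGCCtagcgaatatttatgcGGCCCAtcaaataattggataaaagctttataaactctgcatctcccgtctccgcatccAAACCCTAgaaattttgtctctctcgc
L4 (AT3G09630), plus strand, chr3:2953443-2953742: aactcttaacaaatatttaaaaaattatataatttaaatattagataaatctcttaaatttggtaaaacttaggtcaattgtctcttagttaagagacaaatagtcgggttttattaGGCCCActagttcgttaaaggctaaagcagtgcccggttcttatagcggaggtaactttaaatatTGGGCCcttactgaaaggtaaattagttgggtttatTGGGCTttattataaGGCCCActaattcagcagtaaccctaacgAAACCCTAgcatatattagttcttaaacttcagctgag
L4 (AT5G02870), plus strand, chr5:657425-657724: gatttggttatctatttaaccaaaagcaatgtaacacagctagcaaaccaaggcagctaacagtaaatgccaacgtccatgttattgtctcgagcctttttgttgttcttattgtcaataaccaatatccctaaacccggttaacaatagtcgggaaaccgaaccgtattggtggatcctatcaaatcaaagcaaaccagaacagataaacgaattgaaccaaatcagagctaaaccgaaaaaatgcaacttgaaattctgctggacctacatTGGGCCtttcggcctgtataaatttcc
The P1 window held 1 telo box and 4 site II elements, and that of L4 AT3G09630 also held 1 and 4. The window of L4 AT5G02870 held no telo box and 1 site II element, after the annotated start. Of the 40 members, 34 (85.0%) had a site II element, against 21.7% of the 27419 protein-coding genes of the table. A telo box was found in 16 (40%), against 6.22% of protein-coding genes, and both elements in 13 (32.5%), against 2.20%. Of the protein-coding genes that passed the filter, 26.9% had a site II element and 5.49% a telo box. The elements were not particular to the members. Site II was found in 80.2% of other 60S genes and 70.9% of small-subunit (40S) genes, and a telo box in 53.1% and 49.4%. A match is a description of letters and not a bound site. In the cytoplasm, mos11 against Col-0, the 16 members with a telo box had a median log2 fold change of -0.20 with 2 called lower, and the 24 without had -0.12 with 4 called lower. Of all genes tested 6.40% were called lower.

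Nuclear libraries held 2547560 to 3719008 counts in Col-0 and 1966574 to 18213517 in mos11, whose replicate 2 was the deepest of all. Cytoplasmic libraries were shallower, with 556016 to 1160001 counts in Col-0 and 907270 to 1280371 in mos11. MOS11 (AT5G02770) itself had cytoplasmic levels of 86.4 to 126 CPM in Col-0 libraries and of 4.61 to 11.1 in mos11 libraries. Its nuclear levels were 193 to 227 CPM in Col-0 and 158 to 183 in mos11, so that the genotypes lay far apart in the cytoplasm and close together in nuclei. The 4 leaf markers took 0.683% to 0.831% of nuclear counts and 3.79% to 4.71% of cytoplasmic counts. The 4 root markers had 100 to 1032 counts in nuclear libraries and 15 to 65 in cytoplasmic ones, and the 3 flower markers 0 to 14 in any library. The labels number the libraries without saying that they came from separate plants, and p-values then cover only the variation among them, which may be technical. Whole rosettes were sampled, so fewer cells of a type and less RNA per cell cannot be told apart.

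Levels below are CPM, counts scaled to the library total times a TMM factor, which aligns the bulk of genes between libraries. They are relative levels within the RNA sequenced, differ from shares of raw counts by the TMM factor, and say nothing of the amount per cell. Within the 40 genes levels per kilobase of transcript spanned 25-fold in Col-0 nuclei and 55.3-fold in the Col-0 cytoplasm. In the Col-0 cytoplasm the stalk gene P1 stood first with 1176 ± 113 CPM per kilobase (SD, n = 4). L13 (AT3G49010), a protein of the subunit body, followed with 630 ± 131, then L19 (AT1G02780), which reaches towards the small subunit, with 622 ± 76.7. L8 (AT2G18020) had 615 ± 48.8 and L3 (AT1G43170), next to the catalytic centre, 604 ± 71.2. These 4 neighbours below P1 did not differ beyond their spread. At the other end stood L11 (AT2G42740) with 21.3 ± 4.54, L10 (AT1G26910) with 23.4 ± 3.67 and L35 (AT5G02610) with 36.7 ± 8.39 CPM per kilobase. L11 and L10 did not differ beyond their spread, while L35 lay above both by more than its SD. In Col-0 nuclei the order was different at the top. L19 led with 91.9 ± 3.38 CPM per kilobase, followed by L5 (AT3G25520) with 64.5 ± 3.72 and L3 with 61.6 ± 3.32, while P1 came later with 49.9 ± 5.07. In mos11 P1 led the cytoplasm with 836 ± 72.6 CPM per kilobase and L19 the nuclei with 91.8 ± 3.41 (SD, n = 5).

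**Figure D1:**
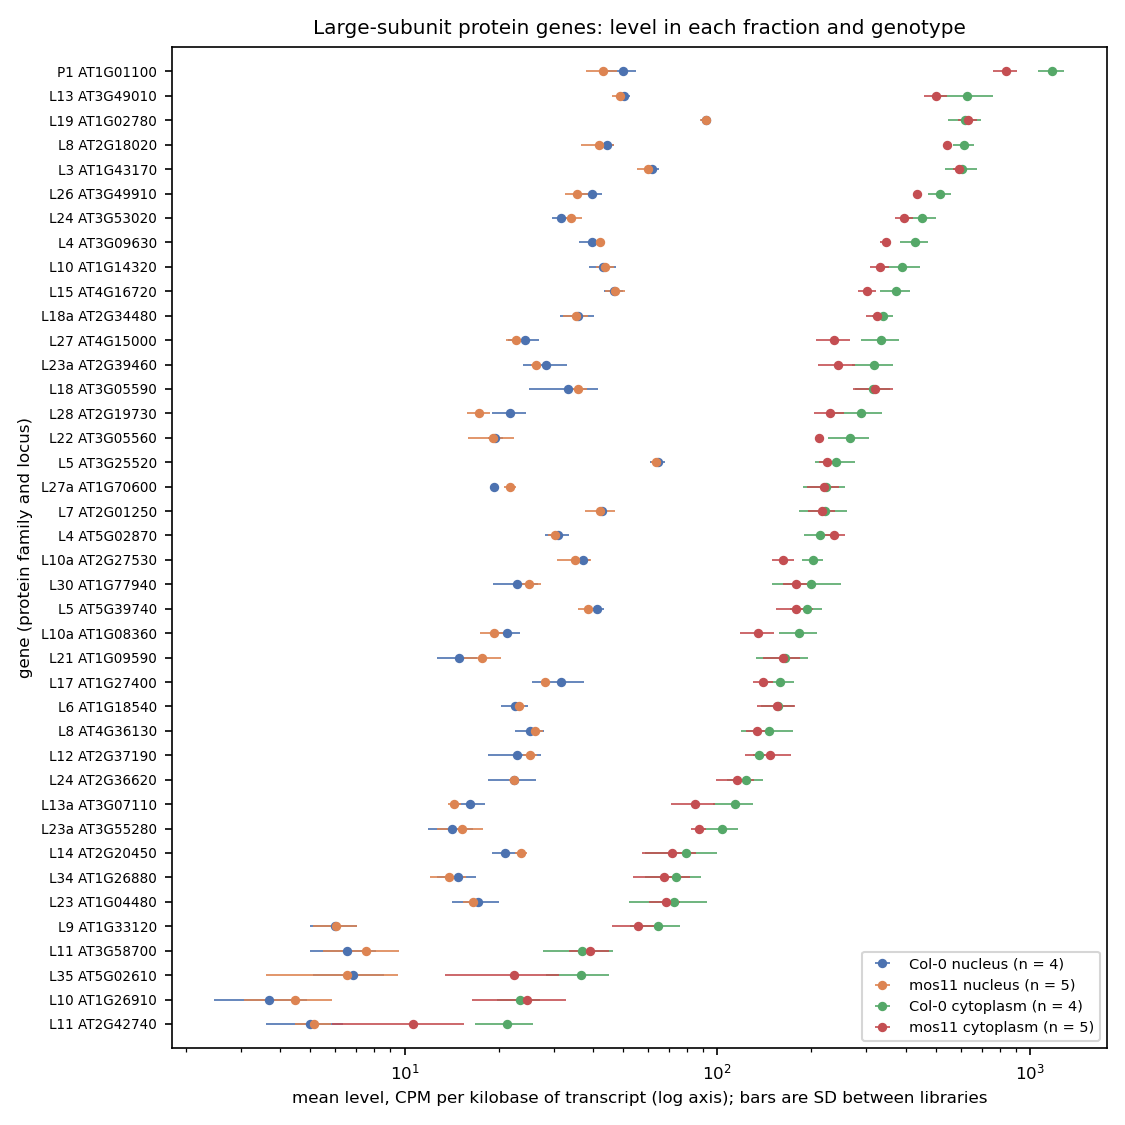
Mean level of each of the 40 genes in the 4 groups, in CPM per kilobase of transcript on a log axis, with bars for the SD between libraries (n = 4 for Col-0, 5 for mos11). Genes are ordered by the Col-0 cytoplasm, where P1 stands first at 1176, and every gene's nuclear means lie to the left of its cytoplasmic means.

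The first comparison asks where the RNA of these genes is found. Every one of the 40 was lower in the nucleus than in the cytoplasm of Col-0, against 32.8% of all genes tested that were lower and 40.6% that were higher. The groups did not overlap for any of the 40, against 27.6% of all genes. The median log2 fold change of the members was -2.92, a 7.55-fold lower level, where the median of all genes tested was 0.30. Together the 40 genes took 0.180% to 0.201% of the counts of Col-0 nuclei and 0.645% to 0.753% of those of the Col-0 cytoplasm. In mos11 all 40 were lower in the nucleus too, against 35.3% of all genes lower and 40.8% higher, with a median of -2.80 and 0.190% to 0.203% of nuclear against 0.664% to 0.743% of cytoplasmic counts. All adjusted p-values come from edgeR's quasi-likelihood test with Benjamini-Hochberg adjustment over the 16207 genes.

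The size of the difference varied among the genes. In Col-0 it was largest for P1, which helps to recruit the translation factors that hydrolyse GTP. P1 had 25, 29.8, 31.8 and 30.6 CPM in the 4 nuclear libraries and 682, 651, 642 and 787 in the 4 cytoplasmic ones. The fractions lay far apart with no overlap, and the log2 fold change was -4.56 ± 0.13 (SE; adjusted p = 2.38e-21). Next came L24 (AT3G53020), a protein needed in plants for reinitiation of translation, with -3.82 ± 0.12. L8 (AT2G18020), which sits by the catalytic centre, followed with -3.78 ± 0.12, then L27 (AT4G15000) with -3.77 ± 0.14 and L22 (AT3G05560) with -3.76 ± 0.14.

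The smallest difference in Col-0 was that of L5 (AT3G25520), a carrier of 5S RNA, with -1.90 ± 0.11. It had 85.5, 81.0, 93.1 and 86.4 CPM in nuclei and 355, 337, 343 and 253 in the cytoplasm, again with no overlap. L14 (AT2G20450) followed with -1.93 ± 0.18 and L11 (AT2G42740), the other 5S partner, with -2.02 ± 0.33. By role the 4 genes of the 5S particle had a median of -2.13, the 4 stalk genes -2.83, the 5 of the tunnel exit -2.84, the 7 of the catalytic core -3.16 and the 20 of the body and surface -3.17. All members of each group were lower in the nucleus.

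In mos11 the order was led by P1 again, with -4.27 ± 0.12, followed by L28 (AT2G19730) with -3.72 ± 0.13, L8 (AT2G18020) with -3.71 ± 0.10, L26 (AT3G49910), at the tunnel exit, with -3.61 ± 0.10 and L24 (AT3G53020) with -3.54 ± 0.11. The smallest differences belonged to L11 (AT2G42740) with -1.02 ± 0.31 (adjusted p = 0.00411), L14 with -1.59 ± 0.15 and L5 (AT3G25520) with -1.81 ± 0.10. L11 AT2G42740 was the exception in 2 ways. Its groups overlapped in mos11, with nuclear levels of 5.31, 4.37, 4.19, 3.86 and 4.06 CPM against 11.5, 2.42, 12.3, 11.1 and 7.84 in the cytoplasm, the low value resting on 2 counts. With library totals in place of TMM factors its difference in mos11 was 0.088, with the sign reversed and an adjusted p of 0.786 by edgeR's quasi-likelihood test. The groups of the other 39 genes did not overlap, against 30.5% of all genes that did not overlap and were lower.

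**Figure D2:**
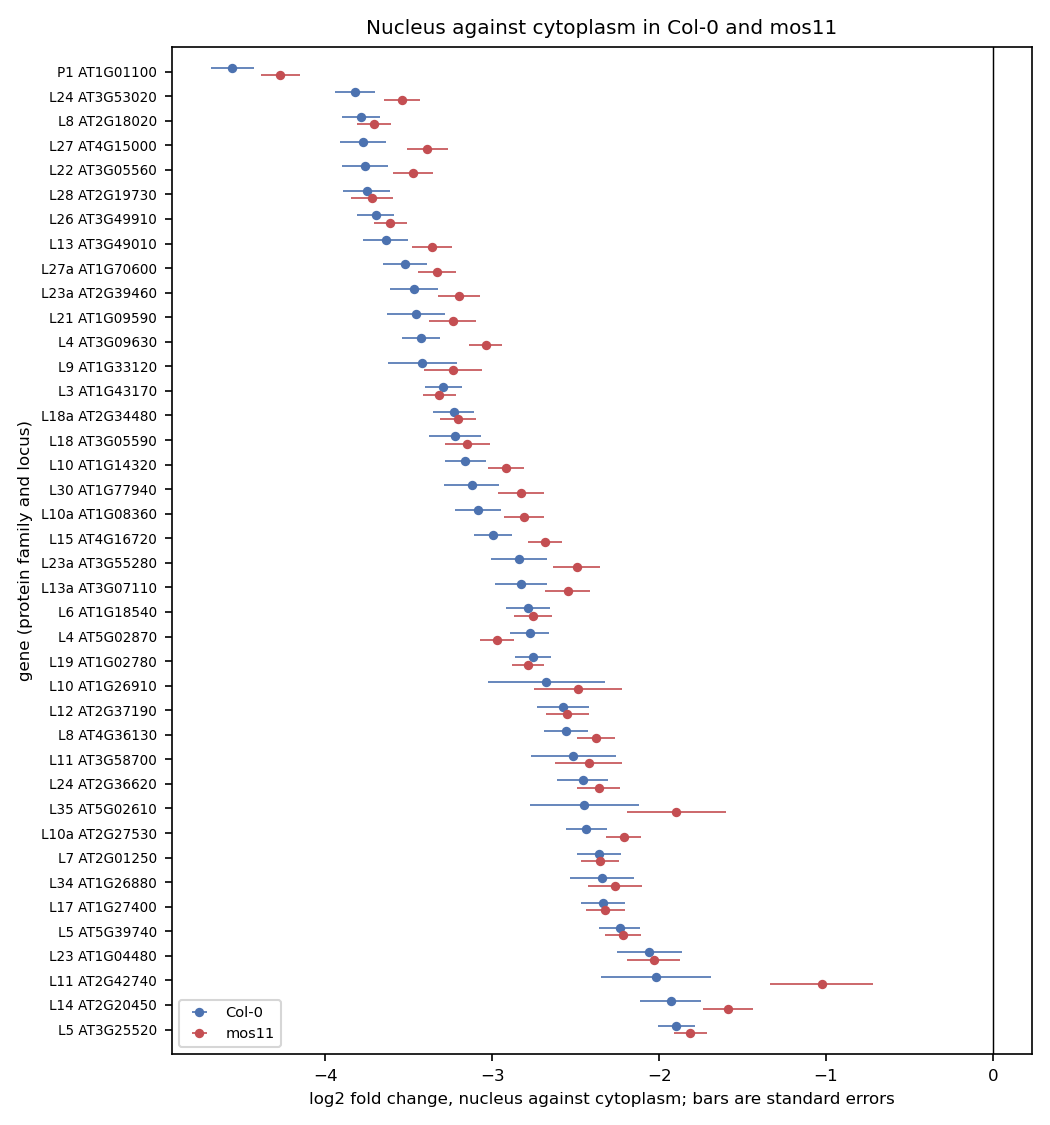
Log2 fold change of nucleus against cytoplasm for each gene in Col-0 and mos11, with bars for the standard error; negative values mean a lower level in the nucleus. All points lie below 0, from -4.56 for P1 to -1.90 for L5 AT3G25520 in Col-0, and the L11 gene AT2G42740 in mos11 lies nearest to 0 at -1.02.

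All 9 cytoplasmic libraries were sequenced on both flow cells and 8 of 9 nuclear libraries on flow cell 1 alone. With 1 column per library, the flow cell and the fraction cannot be told apart. Scaling sets the size of these values, because nuclear and cytoplasmic libraries differ in makeup. The mean TMM factor was 1.47 in Col-0 nuclei and 0.616 in the Col-0 cytoplasm. With library totals alone the median was -1.66 in Col-0, while the median of all genes moved up by 1.25. Relative to the median of all genes the members lay at -3.21 with TMM factors and at -3.21 with library totals. A change of scaling shifts all genes nearly alike, so this agreement had to arise.

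Some gene properties that did not choose the members went along with the fraction difference. Across the 40 genes the Col-0 log2 fold change had Pearson's r of -0.60 (Spearman's rho -0.62) with the log2 mean level per kilobase, which shares the cytoplasmic counts with it. With the number of exons r was 0.45 (rho 0.49), in a set that runs from 1 to 7 exons. The 4 genes with 1 exon (L12, L26, L27 and L27a) had a median of -3.61 against -2.83 for the other 36. Genes are not independent replicates, and these are descriptions. The transcripts were short, with a median of 980.5 bases (587 to 1738) against 1770 for all genes tested.

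The second comparison asks whether nuclear levels differ between the genotypes. None of the 40 genes passed the threshold in nuclei by edgeR's quasi-likelihood test, against 9.14% of all genes higher and 10.9% lower in mos11. DESeq2 also called none, against 10.6% of all genes higher and 13.1% lower. An unadjusted p under 0.05 was found for 1 member, against 31.6% of all genes. The members' median log2 fold change was -0.026, with a range of -0.31 to 0.26, and that of all genes was -0.067. Standard errors ran from 0.10 to 0.28 with a median of 0.13, which is the precision behind this result. Summed over the 40 genes, the level was 1313 ± 56.6 CPM in Col-0 nuclei (SD, n = 4) and 1298 ± 41.9 in mos11 nuclei (n = 5).

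The nuclear member with an unadjusted p under 0.05 was L28 (AT2G19730), a body protein. It had 16.4, 14.7, 18.1 and 13.5 CPM in Col-0 nuclei and 12.6, 12.4, 13.3, 13.4 and 10.8 in mos11 nuclei, which do not overlap. Its log2 fold change was -0.31 ± 0.14 (adjusted p = 0.12, edgeR's quasi-likelihood test). L27a (AT1G70600) was the only gene with the opposite separation, with 17.9 to 18.8 CPM in Col-0 and 19.3 to 22 in mos11, and a log2 fold change of 0.18 ± 0.12 (adjusted p = 0.329, same test). Among all genes tested 9.40% did not overlap and were higher, and 13.3% did not overlap and were lower. The smallest differences were those of L19 (-0.0021 ± 0.098), L24 AT2G36620 (-0.0073 ± 0.13) and L15 AT4G16720 (0.014 ± 0.11).

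The third comparison is the same contrast in the cytoplasm. Here 6 members were lower in mos11 and none higher, against 6.40% of all genes lower and 6.02% higher, so 15% of the members were lower. The members' median was -0.18, a 1.13-fold lower level, where the median of all genes was 0.04, and 33 of the 40 values were negative, against 46.9% of all genes. In the same contrast 15 members had an unadjusted p under 0.05, against 26.2% of all genes. Called genes came from 4 of the 5 role groups: 2 of 4 stalk genes, 2 of 20 of the body and surface, 1 of 5 of the tunnel exit, 1 of 7 of the catalytic core and 0 of 4 of the 5S particle.

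P1 led the called genes. It had 682, 651, 642 and 787 CPM in the Col-0 cytoplasm and 539, 452, 524, 442 and 496 in that of mos11. No library of one genotype reached the range of the other, and the log2 fold change was -0.49 ± 0.11 (adjusted p = 0.00249, edgeR's quasi-likelihood test). L27 (AT4G15000), a body protein whose gene is annotated with 1 exon, had 256, 346, 271 and 287 CPM in Col-0 and 211, 197, 219, 164 and 230 in mos11. These groups did not overlap either, and the difference was -0.49 ± 0.12 (adjusted p = 0.00587, same test). P1 and L27 passed the threshold in every setting and with every library left out in turn, except with library totals.

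The other called genes stood nearer to the threshold. L10a (AT1G08360), which forms the stalk that releases spent transfer RNA, had 201, 230, 165 and 215 CPM in Col-0 and 165, 154, 164, 119 and 150 in mos11, groups that just did not overlap. Its difference was -0.42 ± 0.13 (adjusted p = 0.0263, edgeR's quasi-likelihood test). L13a (AT3G07110) had 120, 83.5, 98.9 and 104 CPM against 91.1, 76.2, 64.3, 63.3 and 84.0, with overlap, and a difference of -0.43 ± 0.15 (adjusted p = 0.0488, same test). L23a (AT2G39460), a docking site for factors at the tunnel exit, had 300, 248, 209 and 251 CPM against 181, 155, 204, 200 and 225, with overlap. Its difference was -0.38 ± 0.13 (adjusted p = 0.0476, same test). L4 (AT3G09630) had 780, 737, 622 and 659 CPM against 604, 549, 541, 563 and 566, without overlap, and -0.31 ± 0.10 (adjusted p = 0.0371, same test). Across the other settings and the fits with a library left out, L13a and L23a each kept the call in 8 fits and lost it in 16. L4 kept it in 14 and lost it in 10, and L10a kept it in 17 and lost it in 7.

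**Figure D3:**
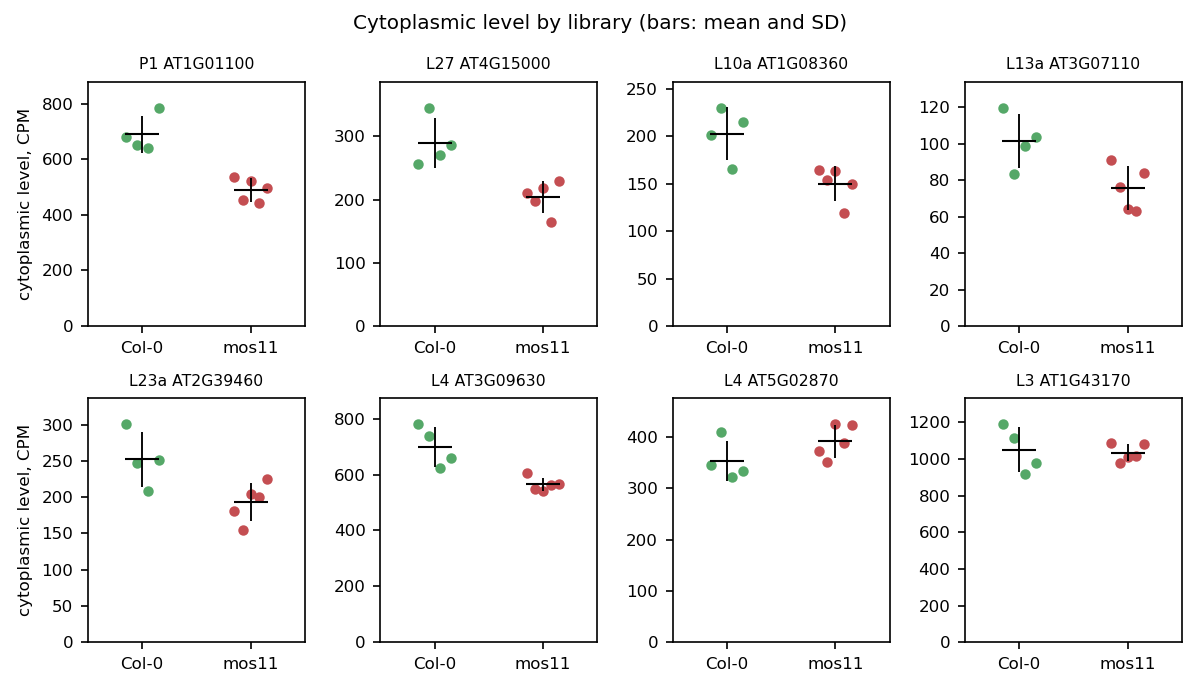
Cytoplasmic level in CPM of 8 genes, one point per library, with the mean and SD as black bars (n = 4 for Col-0, 5 for mos11). The first 6 panels are the genes that were lower in mos11, and the last 2 are the other L4 gene, AT5G02870, and L3, whose groups overlap.

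In all, 8 members were lower in mos11 without overlap, against 5.26% of all genes, and none was higher without overlap, against 5.47%. Besides P1, L27, L10a AT1G08360 and L4 AT3G09630 these were L8 AT2G18020, L10a AT2G27530, L11 AT2G42740 and L26 AT3G49910, none of which passed the threshold. L11 AT2G42740 had the largest fitted difference, -0.98 ± 0.35 (adjusted p = 0.0671, edgeR's quasi-likelihood test), from 7 to 13 counts a library in Col-0 and 2 to 10 in mos11. L35 (AT5G02610), at the tunnel exit, had -0.71 ± 0.32 (adjusted p = 0.154, same test), with 36.8, 25.9, 23 and 35.8 CPM in Col-0 and 31.1, 12.1, 16.9, 15.5 and 16.8 in mos11. The genes nearest to 0 were L6 AT1G18540 (0.0049 ± 0.12), L21 AT1G09590 (-0.0082 ± 0.15) and L27a AT1G70600 (-0.0090 ± 0.12).

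**Figure D4:**
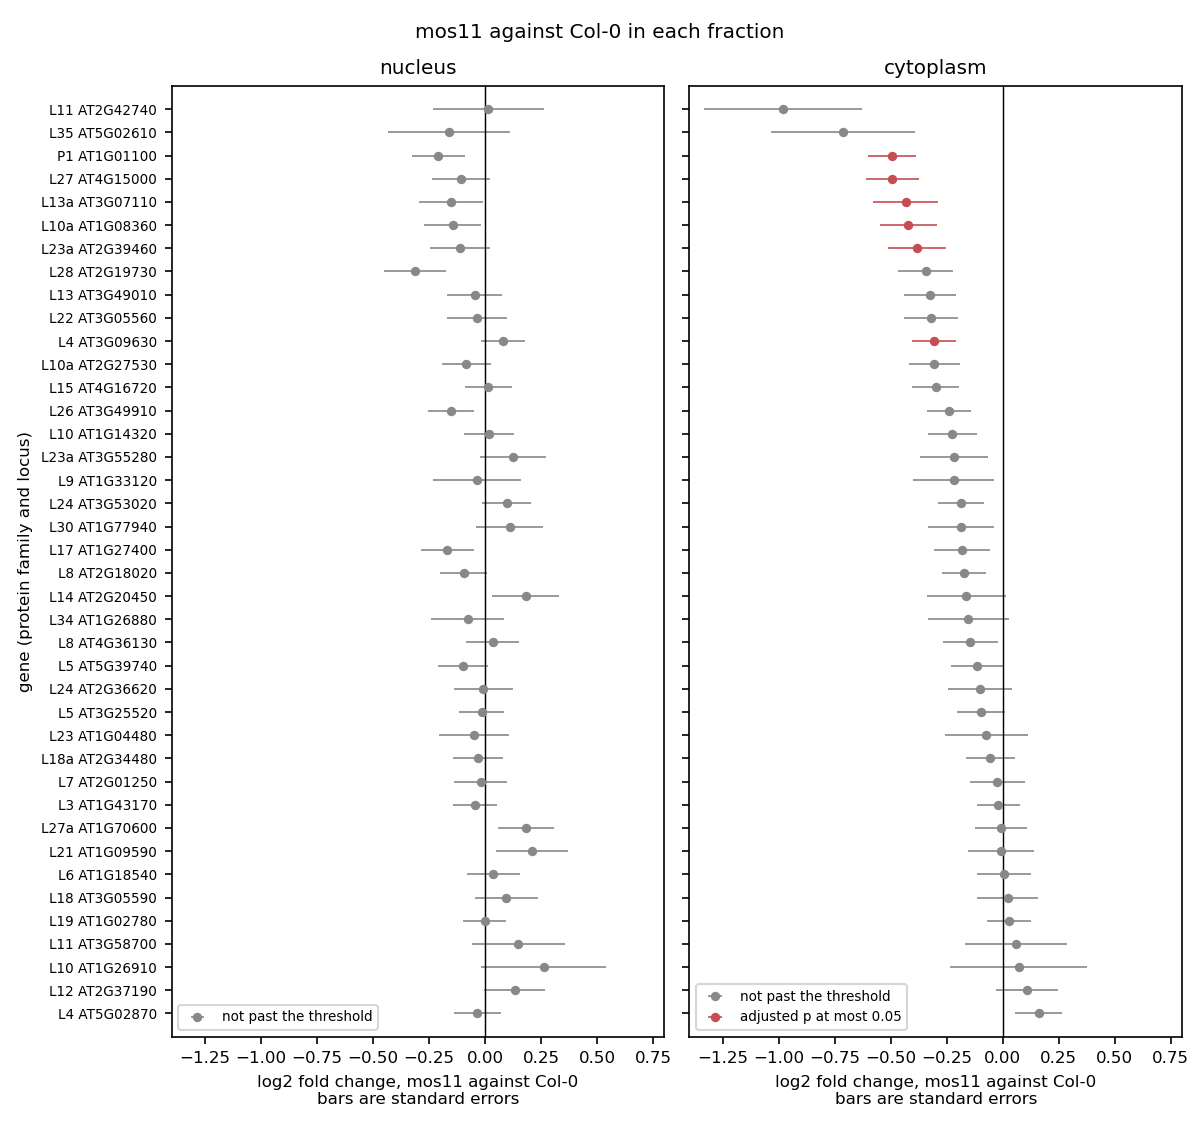
Log2 fold change of mos11 against Col-0 for each gene in nuclei and in the cytoplasm, with bars for the standard error; red points passed an adjusted p of 0.05. In nuclei none passed, while in the cytoplasm 33 of 40 values lie below 0 and 6 passed.

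The direction in the cytoplasm depends on the scaling. With library totals the members' median was 0.021. None was then lower, against 3.25% of all genes, and 1 was higher, against 12.5%, which was L4 AT5G02870 (0.36, adjusted p = 0.0264 by edgeR's quasi-likelihood test). The median of all genes moved up by 0.20 with them. The members lay at -0.22 relative to all genes under both scalings. A change of scaling shifts all genes nearly alike, so this agreement had to arise and is no support for a lower level. As shares of raw counts the 40 genes took 0.698% ± 0.050 of the Col-0 cytoplasm (SD, n = 4) and 0.71% ± 0.034 of that of mos11 (n = 5). As summed CPM they had 11406 ± 846 and 10106 ± 303. The type-A response regulator RR3 alone took 7.81% of Col-0 cytoplasmic counts and 5.51% of those of mos11, and the locus AT1G05163 took 4.20% and 3.62%. The part of these abundant genes in the members' values was not tested. The count of lower members was 11 with median-of-ratios scaling, against 7.58% of all genes lower, and 14 by DESeq2, against 9.01%. Without the filter on low counts it was 2, against 3.42%. It was 2 without Col-0 cytoplasmic replicate 1 (5.32% of all genes) and 2 without mos11 cytoplasmic replicate 4 (4.53%), and 3 without mos11 cytoplasmic replicate 2 (5.39%).

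The interaction asks whether the nucleus to cytoplasm ratio differs between the genotypes. No member passed the threshold by edgeR's quasi-likelihood test, against 0.660% of all genes with a higher ratio in mos11 and 0.919% with a lower one, and 4 members had an unadjusted p under 0.05, against 15% of all genes. The median of the members was 0.19 and that of all genes -0.091, and 37 of 40 values were positive, against 42.5% of all genes. The largest was that of L11 AT2G42740 (0.99 ± 0.43, adjusted p = 0.258, same test), on the few counts given above. L4 AT3G09630 had 0.39 ± 0.14 (adjusted p = 0.166, edgeR's quasi-likelihood test) and was the only member with a higher ratio by DESeq2, at 0.43 (adjusted p = 0.0103). DESeq2 called 1.96% of all genes higher, a share near that of 1 in 40 members. L27 had 0.38 ± 0.18 and L15 AT4G16720 0.31 ± 0.15, neither past the threshold. The values nearest to 0 were those of L7 AT2G01250 (0.0058 ± 0.17), L17 AT1G27400 (0.015 ± 0.17) and L5 AT5G39740 (0.017 ± 0.16). These ratios use the same libraries as the comparisons above and are no separate evidence.

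Of the 32 families, 8 were represented by 2 genes each, which allows a measure free of library scaling, the ratio of both genes within a library. Coding sequences of a pair were identical at 83.7% to 92.7% of positions. In Col-0 the share of a pair's summed level per kilobase that came from one gene differed between fractions without overlap for 5 of the 8 pairs, and in mos11 for 4. Genes outside the 40 were left out, so these are shares of a pair and not of a whole family. These differences between fractions are given as descriptions, and pairs of other genes were not examined. By level, a different measure, many single genes also separated without overlap. Of 16207 genes in Col-0, 5845 were higher and 4473 lower in nuclei, and in mos11 5635 and 4945. L8 AT2G18020 supplied 63.8% ± 2.36 of its pair in Col-0 nuclei and 80.7% ± 4.03 in the cytoplasm (SD, n = 4). L24 AT2G36620 supplied 41.2% ± 5.29 in nuclei and 21.6% ± 2.18 in the cytoplasm. The mos11 values were alike in direction, 61.5% against 80.2% for L8 and 39.8% against 22.6% for L24. L5 AT3G25520 supplied 61.0% in Col-0 nuclei and 55.2% in the cytoplasm, and 62.4% and 55.8% in mos11, without overlap in either genotype. L10a AT1G08360 supplied 36.3% in Col-0 nuclei and 47.3% in the cytoplasm, and in mos11, where its fractions overlapped, 35.7% and 45.3%. Of the L10 pair, AT1G14320 (SAC52) supplied most in every group, with means from 90.8% to 94.2%. The 60S gene closest in sequence to both, AT1G66580, is outside the 40 and was not counted. L11 AT2G42740 supplied 41.4% in mos11 nuclei (31.8% to 51.4%) and 21.3% in the mos11 cytoplasm (6.30% to 29.3%). These ranges did not overlap but lay close together, and the gene had as few as 2 counts in a library. In Col-0 it supplied 43.1% in nuclei and 37.1% in the cytoplasm, with overlap. The fractions overlapped for L23a AT2G39460 in both genotypes, with 66.5% and 75.3% in Col-0.

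Between genotypes only the L4 pair differed without overlap, and only in the cytoplasm. In the cytoplasm AT3G09630 supplied 64.6% to 69.6% of the pair in Col-0 and 56.3% to 62.2% in mos11, without overlap. In nuclei it supplied 56.3% ± 2.64 in Col-0 (n = 4) and 58.1% ± 0.584 in mos11 (n = 5). The other gene, AT5G02870, had 345, 409, 323 and 333 CPM in the Col-0 cytoplasm and 371, 351, 424, 389 and 422 in that of mos11, with overlap and a difference of 0.16 ± 0.10 (adjusted p = 0.353, edgeR's quasi-likelihood test). The log2 ratio of counts within a library was 0.99 ± 0.14 (SD, n = 4) in Col-0 and 0.53 ± 0.15 (n = 5) in mos11, a difference of -0.46. A two-sided exact permutation test gave p = 0.0159, the smallest that 4 against 5 libraries allow, and 0.254 after adjustment over the 16 tests of 8 pairs in 2 fractions. No single pair could pass that adjustment alone, and none of the 16 did. Of the 16 tests this was the only one with an unadjusted p under 0.05. The next smallest was L11 in the cytoplasm, with a difference of -1.20 (exact p = 0.0794, adjusted 0.61). For the other pairs the difference in log2 ratio ran from -0.23 for L10 in nuclei to 0.083 for L5 in nuclei.

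**Figure D5:**
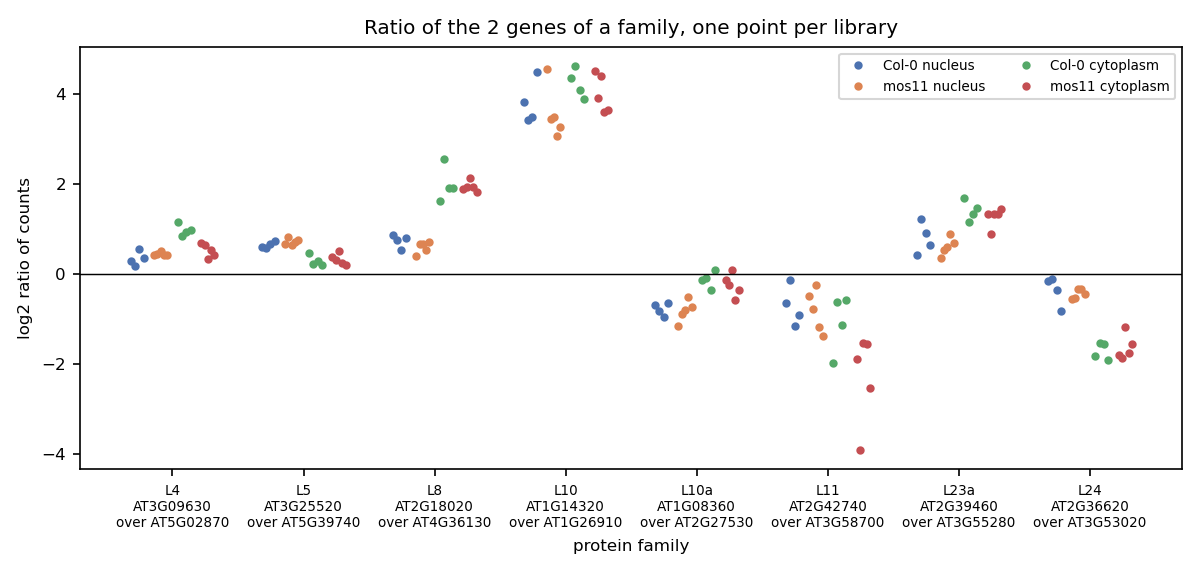
Log2 ratio of the counts (plus 0.5) of the 2 members from each of 8 families, one point per library, in the 4 groups. In the L4 pair the 4 Col-0 cytoplasmic libraries lie above the 5 of mos11, and in the L5, L8 and L24 pairs the fractions of both genotypes lie apart.

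Some of these counts may hold reads of other genes, since the sources used here give neither the strand used for counting nor the handling of reads with several matches. The L9 gene AT1G33120 shared 57.9% of its 30-base windows with another 60S gene, AT1G33140, and its values are uncertain for that reason. L21 AT1G09590 and L11 AT2G42740 shared 17.8% and 11.6%, and the median over the members was 1.25%. Annotated genes overlap 6 members on the other strand (L6, L8 AT4G36130, L9, L15, L24 AT2G36620 and L34) and 3 on the same strand (L17, L23 and L34).

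Most other ribosomal protein genes were also lower in the nucleus, where 32.8% of all genes tested were lower in Col-0 and 40.6% higher. Of 85 tested genes of the 60S subunit outside the 40, 84 were lower in the nucleus in Col-0 with a median of -3.02, and of 77 small-subunit (40S) genes 76 were, with a median of -3.27. All 23 genes of the chloroplast large subunit (50S) were lower too, at a median of -3.64. Of 14 assembly factor genes for the 60S subunit 9 were lower and 1 higher, with a median of -1.04. FIB1 (fibrillarin, a nucleolar RNA methylase) had -2.80 ± 0.12 and NUC-L1 (nucleolin) -1.93 ± 0.12.

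In the cytoplasm of mos11 the other lists moved as follows, where 6.40% of all genes tested were lower than in Col-0 and 6.02% higher. Among the other 60S genes 28 of 85 were lower and 0 higher, with a median of -0.36, and those with the smallest p were the P-family gene AT5G47700 (-0.70 ± 0.13) and the L36e genes AT5G02450 (-0.65 ± 0.12) and AT3G53740 (-0.62 ± 0.12). Among 40S genes 23 of 77 were lower and 0 higher, with a median of -0.27, and the smallest p was that of PFL (an S18 gene, -0.82 ± 0.14). Of the 23 chloroplast 50S genes 17 were lower, with a median of -0.49. The assembly factors had a median of 0.28, with 1 of 14 higher, the Nop53-type gene AT2G40430 (0.55 ± 0.18, adjusted p = 0.0461, edgeR's quasi-likelihood test). Whether the members differ from these lists was not tested. In nuclei 9 of the 23 chloroplast genes were lower in mos11, as was 1 of 77 40S genes, AT5G15200 (-0.32 ± 0.12). Of all genes tested 10.9% were lower there and 9.14% higher. None of the 85 other 60S genes and none of the 14 assembly factor genes passed. Of these, 3 and 4 had an unadjusted p under 0.05, against 31.6% of all genes.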

How the data were processed

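The authors deposited raw counts per gene for 18 libraries, which the labels list as 28 samples because all 9 cytoplasmic libraries and 1 of 9 nuclear ones ran on 2 flow cells; no source used here says whether a column sums both. UMI-tools, featureCounts, Picard, STAR 2.7.8a and the build TAIR10 appear in the submitters' processing notes, without roles. Counts were fitted in R 4.3.3 with edgeR 4.0.16: TMM factors, the default filterByExpr filter (minimum count 10), all 4 groups together, quasi-likelihood tests, and an adjusted p of at most 0.05. Positive log2 fold changes mean higher in the nucleus, in mos11, or a higher nucleus to cytoplasm ratio in mos11. Standard errors are approximate: each log2 fold change was divided by the root of its F statistic. Gene pairs were compared by two-sided exact permutation tests of log2 count ratios with 0.5 added (scipy 1.17.1). The fit and the permutation test were tested on simulated data.

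Positions, transcripts and promoters come from the RefSeq annotation of TAIR10.1, with no coordinate converted. Levels per kilobase use the transcript with the longest coding sequence. Genes given in full were, per comparison, up to 5 called members in each direction with the largest changes, the 3 with the smallest, both genes of each pair, the 3 highest and lowest levels, MOS11, and up to 3 genes of each other list. Other members were named after their values were seen: L28, L27a, L35 and L15 where a count or an unadjusted p singled them out, and those listed for role, overlap or exons. RR3 and AT1G05163 were named likewise. The members and lists were chosen with earlier results of these data known. Counts of 2 replicates of a group varied more than sampling noise, by 2.025 to 12.4 times in Col-0 and by 1.18 to 2.40 times in mos11. None was treated as a copy, and the fit pooled the spread of both genotypes. Replicate numbers were checked for pairing by the correlation of deviations from group means: in Col-0 nuclei and cytoplasm it was 0.105 to 0.333, over 0.1 in 4 of 4 pairs, and all 40 members stayed lower in the nucleus with the block. Alternatives were median-of-ratios scaling, library totals, no filter on low counts, DESeq2 1.42.0, the replicate number as a block, a fit of only the groups compared, and each library left out.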

Additional observations from a re-analysis of the deposited data

Results flagged for a closer look

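Levels in each group were screened for 1 library far from the rest of its group, and 3 of 168 groups of values (1.79%) had one; about 1 in 20 would by chance. L10a AT2G27530 had 29.4 CPM in mos11 nuclear replicate 4, below the 39.2 to 40.8 of the other 4 libraries. L23a AT2G39460 had 17.2 CPM in Col-0 nuclear replicate 1, below the 24.1 to 24.9 of the other 3. L35 AT5G02610 had 31.1 CPM in mos11 cytoplasmic replicate 1, above the 12.1 to 16.9 of the other 4.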

How the results depend on the processing

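Of the 1117 values computed under an alternative, 6 reversed, 51 no longer passed the threshold and 17 moved. The 51 all belonged to the 6 members called lower in the cytoplasm, with 16 each for L13a AT3G07110 and L23a AT2G39460. The members' median between fractions was -2.74 in Col-0 and -2.56 in mos11 with median-of-ratios scaling and also by DESeq2 (-2.74 and -2.56), and -1.66 and -1.68 with library totals, under which L11 AT2G42740 in mos11 turned to 0.088. With each library left out the medians ran from -2.99 to -2.85 in Col-0 and from -2.82 to -2.72 in mos11. In nuclei the median between genotypes turned to 0.032 with library totals and to 0.026 in a fit of only the groups compared, and with a library left out it ran from -0.044 to 0.033; no member passed in any of them. In the cytoplasm 6 members were lower, against 11 with median-of-ratios scaling, 14 by DESeq2, 2 without a filter on low counts, 2 in a fit of only the groups compared and 0 with library totals (1 higher, median 0.021), and from 2 to 7 with a library left out. The shares of all genes called lower were 6.40% in the main fit, 7.58% with median-of-ratios scaling and 9.01% by DESeq2. They were 3.42% without the filter, 8.22% in the fit of only the groups compared and 3.25% with library totals (12.5% higher). The count of 7 came without Col-0 nuclear replicate 3 (1160 of 15651 genes lower) and without Col-0 cytoplasmic replicate 3 (793 of 17126). DESeq2 called 1 member for the interaction, and no fit of only the groups compared exists for it. The cause of these differences was not tested, apart from the shift of all genes with the scaling. With the replicate block 3 members were lower in the cytoplasm, against 5.86% of all genes. Correlations of same-numbered libraries gave little sign that the numbers pair those samples. They ran from -0.020 to 0.036 between genotypes in the cytoplasm, -0.090 to 0.10 in nuclei and 0.015 to 0.053 between the fractions of mos11. The block left the counts of called members in the other comparisons as they were. For the gene pairs 0 of 16 tests passed with 5 in place of 0.5 added or with a library left out, where the smallest adjusted p was 0.19 to 0.571; a single pair could not have passed in this design, so these counts say nothing of stability. Depth limits L11 AT2G42740 most, with as few as 2 counts in a library.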
